A study of Homo sapiens with 4 samples.

Results

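The genes described here are 10 effectors and targets of the Hippo pathway: the coactivator genes YAP1 and WWTR1 (which encodes TAZ), the transcription factor genes TEAD1, TEAD2, TEAD3 and TEAD4, the inhibitor genes LATS2 and AMOTL2, and the secreted target genes CTGF and CYR61. They were chosen by symbol, and all 10 were found among the 25690 gene rows of the deposited count table and passed the filter on low counts that left 15643 genes. PolyA-selected RNA was sequenced from H9, a line of human embryonic stem cells, at day 7, when the series calls the cells non-neural ectoderm. The first group was wild type (WT, 2 libraries) and the second carried the genotype label TFAP2A knockout (2 libraries). Nothing else separates the groups in the labels, which give no clone, guide, deleted exon or culture medium, and do not say whether replicate libraries came from separate cultures. The p-values therefore rest on a spread between libraries that may be technical.

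The libraries held 17838204 to 21797850.5 counts. TFAP2C stands in the titles of the knockout-labelled libraries, but TFAP2A in their genotype label. TFAP2A, the gene of the genotype label, had levels of 171 and 198 CPM (counts scaled to library size) in WT and of 133 and 121 CPM in the knockout-labelled libraries (adjusted p = 0.000125), and TFAP2C was at 27.5 and 30.6 against 8.89 and 5.77 CPM (adjusted p = 6.66e-06). Both were lower and neither was absent, so these levels check the label only in part. Of 10 markers of the named tissue, 7 (GATA3, KRT8, KRT18, KRT19, MSX2, EPCAM and CDH1) were above 100 CPM in all 4 libraries, while DLX3 was at 14.0 to 49.8, DLX5 at 5.41 to 20.0 and TP63 at 13.5 to 23.7 CPM. Of 4 pluripotency markers, POU5F1 and NANOG stayed below 1 CPM, while DPPA4 was at 68.0 to 78.1 CPM and ZFP42 at 31.3 to 34.3 CPM. In WT the 10 markers of the named tissue summed to 3217 to 3489 CPM. There, 8 mesenchyme markers summed to 11431 to 11778 CPM and 6 amnion and trophoblast markers to 2097 to 2269 CPM. Neural ectoderm markers (17.0 to 17.9 CPM) and endothelium markers (40.9 to 42.8 CPM) were low. These levels therefore do not single out the named tissue.

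The Hippo pathway is a kinase cascade that restrains growth. The kinases STK3 and STK4, with the scaffold SAV1, activate LATS1 and LATS2, which phosphorylate YAP1 and TAZ and keep them in the cytoplasm. Unphosphorylated YAP1 and TAZ enter the nucleus, where they bind TEAD factors, which recognise DNA, and raise the transcription of genes such as CTGF and CYR61, of the inhibitors LATS2 and AMOTL2, and of other genes. In early embryos the pathway is known for its part in trophectoderm and in epithelial tissues. Because YAP1 and TAZ are regulated largely by phosphorylation and localisation, their transcript levels do not measure their activity.

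The DNA before the start sites is shown first, since TEAD and AP-2 factors bind known short motifs and the TFAP2A gene encodes an AP-2 factor. RefSeq promoters of build GRCh38.p14 were found for 7 of the 10 genes, with 10 windows of the 250 bases before a start. CYR61, TEAD1 and TEAD4 had no entry. The windows were searched for the TEAD core GGAATG on both strands (its reverse complement is CATTCC) and for the AP-2 core GCCNNNGGC, whose reverse complement has the same form. No match of one motif overlapped a match of the other. In the stretches below, written 5′ to 3′ on the strand of the gene, capitals mark the matches of either motif. CTGF is shown because it holds more TEAD cores than any other window of these genes, LATS2 because it holds the most AP-2 cores, and YAP1 and AMOTL2 because they hold the remaining TEAD cores.
CTGF, chr6:131951383-131951622, minus strand: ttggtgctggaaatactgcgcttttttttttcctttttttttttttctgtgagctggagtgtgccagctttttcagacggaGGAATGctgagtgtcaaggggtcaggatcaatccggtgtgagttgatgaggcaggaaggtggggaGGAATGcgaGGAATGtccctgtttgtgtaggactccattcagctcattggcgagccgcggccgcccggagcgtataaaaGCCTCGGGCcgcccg
LATS2, chr13:21061597-21061836, minus strand: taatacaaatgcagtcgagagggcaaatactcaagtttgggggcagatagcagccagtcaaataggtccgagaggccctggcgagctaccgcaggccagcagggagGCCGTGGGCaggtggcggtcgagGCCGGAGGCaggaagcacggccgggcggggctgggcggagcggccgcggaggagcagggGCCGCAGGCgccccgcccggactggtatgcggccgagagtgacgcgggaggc
YAP1, chr11:102110247-102110306, plus strand: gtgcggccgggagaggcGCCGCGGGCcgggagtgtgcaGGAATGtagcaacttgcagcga
AMOTL2, chr3:134374502-134374531, minus strand: aacctgaaactctcaCATTCCtggcatagc

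CTGF held 3 TEAD cores, beginning 169, 104 and 95 bases before its start. Of all 35116 RefSeq windows of this length, 11.9% held at least 1 TEAD core and 29 (0.0826%) held 3 or more. YAP1 held 1 core, beginning 162 bases before the start, and AMOTL2 held 1, in the reverse orientation, before the second of its starts. The AMOTL2 stretch printed above overlaps an annotated exon of the same gene. An AP-2 core was found in 6 of the 10 windows, those of YAP1, LATS2 and CTGF, 1 of TEAD2 and both of AMOTL2, against 19.8% of all windows. LATS2 held 3 AP-2 cores, and 0.832% of all windows held 3 or more. Neither motif was found in the windows of WWTR1 and TEAD3. For YAP1, LATS2, TEAD3 and the TEAD2 start with a match, the bases after the RefSeq start were in no GENCODE 29 transcript of the gene. Windows and distances there hold for the RefSeq start alone. A match is a description of the letters and does not show that a factor binds there. These counts are set beside the expression values below.

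**Figure D1:**
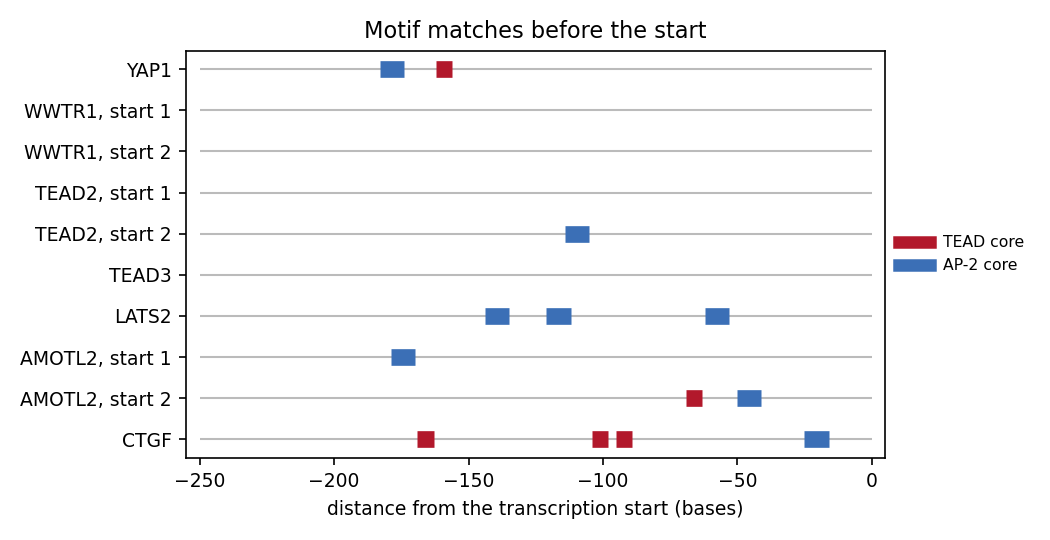
Positions of TEAD core and AP-2 core matches in the 250 bases before each RefSeq start, by distance from the start in bases, 1 line per start. CTGF holds 3 TEAD cores, LATS2 holds 3 AP-2 cores, and WWTR1 and TEAD3 hold neither.

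The differences between genotypes were modest and ran both ways. Of the 10 genes, 3 were higher (TEAD2, CTGF and CYR61) and 4 lower (WWTR1, TEAD1, TEAD3 and LATS2) in the knockout-labelled libraries, and YAP1, TEAD4 and AMOTL2 did not pass. The threshold was an adjusted p of 0.05 in the quasi-likelihood test of edgeR, with p-values adjusted by Benjamini and Hochberg's method across all 15643 genes. In the same test 44.2% of all genes passed, 21.9% higher and 22.3% lower. The largest changes, those of CYR61 and CTGF, were 1.56-fold and 1.55-fold. None of the 10 reached a log2 fold change of 1 in either direction, and their median was -0.12, beside 0.00 for all genes tested. The libraries of the genotypes did not overlap for any of the 10, as for 73.1% of all genes tested. In bulk RNA, fewer cells of a type and less RNA per cell cannot be told apart.

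**Figure D2:**
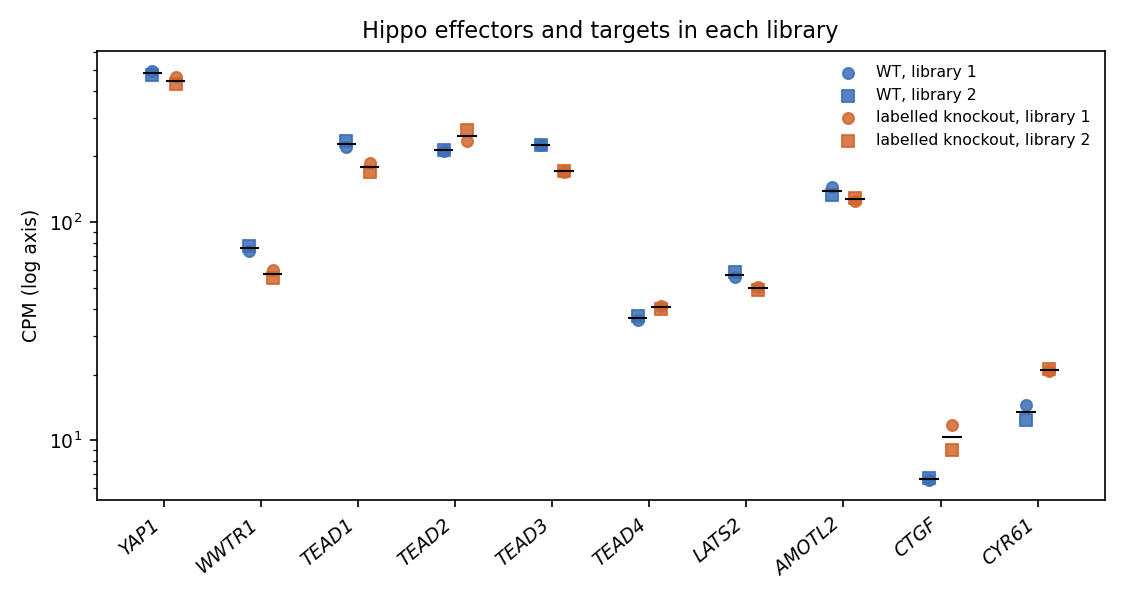
CPM on a log axis for each gene in each of the 4 libraries, with the mean of each genotype as a black bar. YAP1 lies at 430 to 492 CPM and CTGF at 6.57 to 11.7 CPM, and for each gene both knockout-labelled libraries lie on 1 side of both WT libraries.

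Of the coactivators, WWTR1 fell while YAP1 did not pass. YAP1 (chromosome 11, 101981192 to 102104154, plus strand, hg19), the main transcriptional coactivator held back by the LATS kinases, was at 492 and 474 CPM in WT and at 462 and 430 CPM in the knockout-labelled libraries. All 4 values lay within a narrow band, with both WT libraries on top. The log2 fold change was -0.12 (SE 0.05, unadjusted 95% interval -0.23 to -0.00218, adjusted p = 0.0917). The call appeared without knockout replicate 1 (adjusted p = 0.0404). WWTR1 (chromosome 3, 149235022 to 149375888, minus strand, hg19) encodes TAZ, which shares the TEAD-binding role of YAP1. It was at 73.9 and 77.8 CPM in WT and at 60.6 and 55.5 CPM in the knockout-labelled libraries. Both knockout-labelled libraries were below both WT libraries, and the level was lower by 1.31-fold (SE of the log2 fold change of -0.39, 0.07; adjusted p = 0.000344).

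Levels of different genes can be compared only per length. With CPM divided by the length of the longest coding transcript in kilobases (CPM per kb), YAP1 stood at 89.5 ± 2.47 (SD, n = 2) and WWTR1 at 15.1 ± 0.552 in WT, and at 82.6 ± 4.16 and 11.5 ± 0.715 in the knockout-labelled libraries. The ratio of YAP1 to WWTR1 per kb was 6.21 and 5.67 in WT and 7.10 and 7.22 in the knockout-labelled libraries. It was higher in both knockout-labelled libraries (exact two-sided permutation test over libraries, p = 0.333, the smallest that 2 against 2 allows). The summed level of both coactivators was 106 and 103 CPM per kb in WT and 97.6 and 90.7 CPM per kb in the knockout-labelled libraries, again without overlap and with the same smallest p of 0.333 in the exact test.

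The TEAD factors, which carry the DNA-binding domain of the complex, did not move together: TEAD1 and TEAD3 fell, TEAD2 rose and TEAD4 did not pass. TEAD3 (chromosome 6, 35441374 to 35464861, minus strand, hg19) was at 226 and 225 CPM in WT and at 170 and 172 CPM in the knockout-labelled libraries. The replicates were nearly equal within each genotype, and TEAD3 had the lowest adjusted p of the 10 genes (log2 fold change -0.40, SE 0.05, 1.32-fold, adjusted p = 1.29e-05). TEAD1 (chromosome 11, 12695969 to 12966284, plus strand, hg19) was at 222 and 236 CPM in WT and at 186 and 170 CPM in the knockout-labelled libraries. Its fall was of similar size (1.29-fold, log2 fold change -0.36, SE 0.06, adjusted p = 0.000128).

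TEAD2 (chromosome 19, 49843853 to 49865714, minus strand, hg19), the TEAD factor known for expression in neural precursors and early embryos, rose. It was at 212 and 215 CPM in WT and at 235 and 264 CPM in the knockout-labelled libraries. Both knockout-labelled libraries were above WT but apart from each other (1.17-fold, log2 fold change 0.23, SE 0.06, adjusted p = 0.00542). The call was lost without WT replicate 1 (adjusted p = 0.0611) and without knockout replicate 2 (log2 fold change 0.14, adjusted p = 0.0675). The TEAD2 row overlaps that of CD37 on the other strand by 9 bp, and CD37 itself was at 3.80 and 6.27 CPM in WT and at 8.04 and 8.62 CPM in the knockout-labelled libraries. TEAD4 (chromosome 12, 3068478 to 3149842, plus strand, hg19), known for its part in trophectoderm, was at 35.6 and 37.2 CPM in WT and at 41.3 and 40.1 CPM in the knockout-labelled libraries. The values did not overlap, but the test did not pass (log2 fold change 0.16, SE 0.07, unadjusted 95% interval 0.00722 to 0.31, adjusted p = 0.0835).

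Per length, TEAD2 and TEAD3 made up most of the TEAD transcripts. In WT, TEAD2 was at 87.4 ± 0.796 CPM per kb, TEAD3 at 75.5 ± 0.224, TEAD1 at 27.04 ± 1.18 and TEAD4 at 21.6 ± 0.66 (SD, n = 2). In the knockout-labelled libraries, TEAD2 stood at 102 ± 8.20, TEAD3 at 57.3 ± 0.485, TEAD4 at 24.1 ± 0.524 and TEAD1 at 21.01 ± 1.34 CPM per kb. TEAD2 took 41.4% and 41.3% of the summed TEAD level in WT and 48.3% and 51.6% in the knockout-labelled libraries. TEAD3 took 36.1% and 35.3% in WT and 28.5% and 27.5% in the knockout-labelled libraries. The ratio of TEAD2 to TEAD3 per kb was thus 1.15 and 1.17 in WT and 1.69 and 1.87 in the knockout-labelled libraries (exact two-sided permutation test, p = 0.333, the smallest possible). This ratio was not among the planned measures, and it sets a factor called higher against a factor called lower. The summed TEAD level itself was 210 and 213 CPM per kb in WT and 199.9 and 209 in the knockout-labelled libraries, a log2 ratio of -0.05. It was -0.14 when CPM were summed without length.

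**Figure D3:**
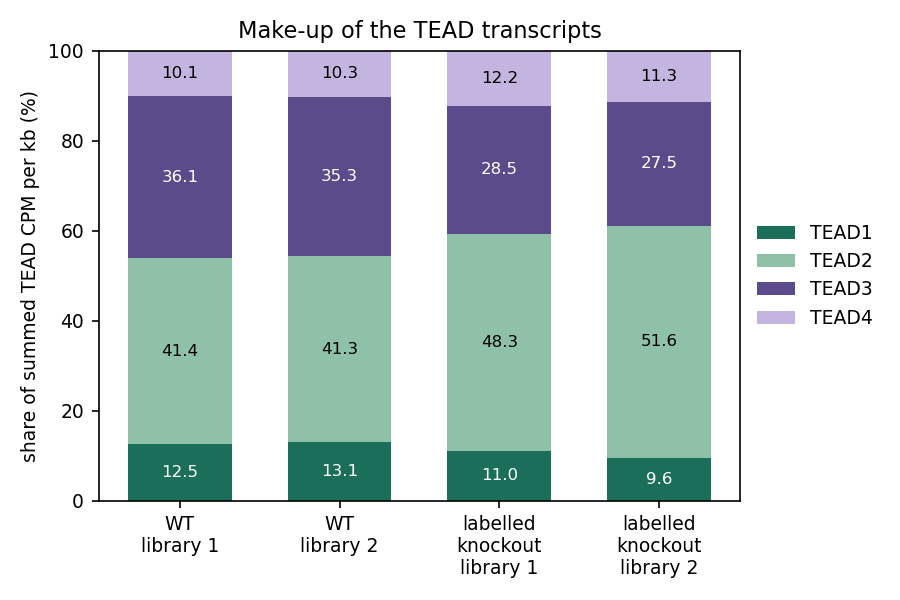
Share of each TEAD factor in the summed TEAD CPM per kb, in percent, 1 bar per library. TEAD2 takes 41.3% to 41.4% in WT and 48.3% to 51.6% in the knockout-labelled libraries, while TEAD3 takes 35.3% to 36.1% in WT and 27.5% to 28.5% in the knockout-labelled libraries.

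The secreted targets CTGF and CYR61, matricellular proteins of the CCN family and the most widely used readouts of YAP1 and TAZ, both rose. CYR61 (chromosome 1, 86046444 to 86049648, plus strand, hg19) was at 14.5 and 12.3 CPM in WT and at 20.7 and 21.1 CPM in the knockout-labelled libraries, from 217.5 to 461 counts per library. The knockout-labelled libraries were close to each other and lay above both WT libraries (1.56-fold, log2 fold change 0.64, SE 0.11, adjusted p = 0.00028). CTGF (chromosome 6, 132269317 to 132272518, minus strand, hg19) was at 6.57 and 6.69 CPM in WT and at 11.7 and 8.98 CPM in the knockout-labelled libraries, from 117.5 to 229 counts per library. The WT libraries were nearly equal and those labelled knockout stood apart (1.55-fold, log2 fold change 0.64, SE 0.16, adjusted p = 0.00541). The call for CTGF was lost without knockout replicate 1 (log2 fold change 0.44, adjusted p = 0.0681). By size of change, CTGF and CYR61 exceeded 79.4% and 79.5% of all genes tested. These were the least abundant of the 10 genes, at 2.83 and 5.85 CPM per kb in WT. Per kb, the promoter with 3 TEAD cores thus belonged to the lowest of them.

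The inhibitors that YAP1 and TAZ are known to induce did not rise with CTGF and CYR61. LATS2 (chromosome 13, 21547176 to 21635722, minus strand, hg19), the kinase that phosphorylates YAP1 and TAZ, was at 56.03 and 58.8 CPM in WT and at 50.2 and 49.1 CPM in the knockout-labelled libraries. It fell 1.16-fold (log2 fold change -0.21, SE 0.07, adjusted p = 0.0195). The call was lost without WT replicate 2 (adjusted p = 0.131), without knockout replicate 2 (0.0754) and with DESeq2 (0.129). AMOTL2 (chromosome 3, 134074187 to 134093427, minus strand, hg19), an angiomotin that tethers YAP1 at junctions, was at 145 and 134 CPM in WT and at 125 and 130 CPM in the knockout-labelled libraries. The nearest libraries of the genotypes lay closer together than the WT libraries did, and AMOTL2 did not pass (log2 fold change -0.13, SE 0.06, unadjusted 95% interval -0.25 to -0.00587, adjusted p = 0.0834), although it did without WT replicate 2 (adjusted p = 0.0496). The difference between these inhibitors and the secreted targets was not tested.

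**Figure D4:**
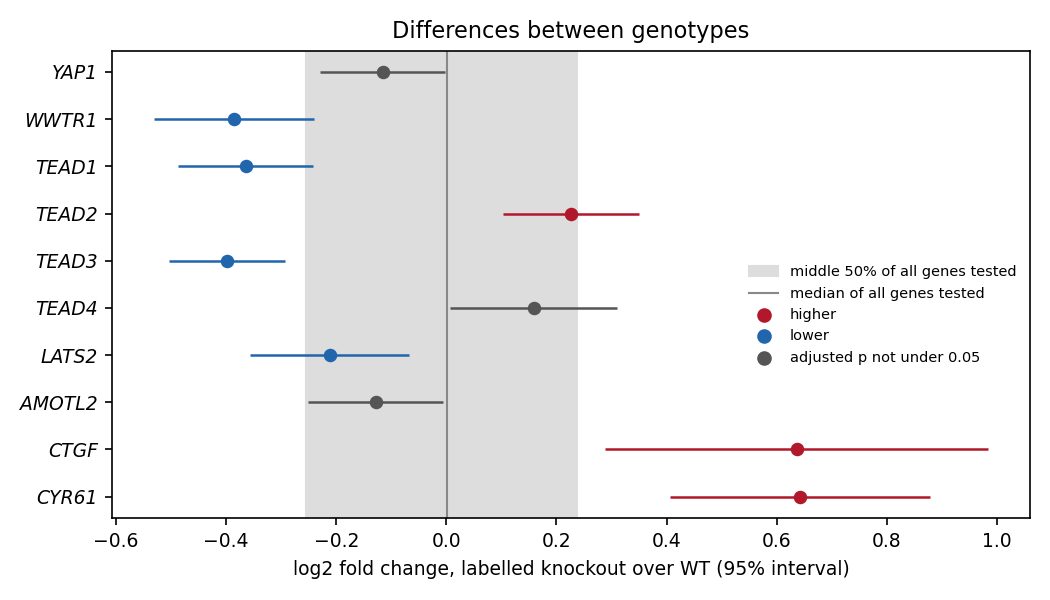
Log2 fold change of each gene, knockout-labelled libraries over WT, with its unadjusted 95% interval, coloured by call. The grey band spans the middle 50% of all genes tested (-0.26 to 0.24), and CTGF and CYR61 lie at 0.64.

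Ordered by WT level per kb, the genes ran YAP1, TEAD2, TEAD3, AMOTL2, TEAD1, TEAD4, WWTR1, LATS2, CYR61 and CTGF. YAP1 and TEAD2 did not differ beyond their spread (difference 2.07, combined SD 2.60 CPM per kb). Each other neighbouring pair was separate in both WT libraries. With the length of all exons together in place of the longest coding transcript, TEAD3 stood above TEAD2 and LATS2 above WWTR1. In both knockout-labelled libraries TEAD2 was above YAP1 and TEAD4 above TEAD1. CYR61 (9.04 and 9.23 CPM per kb) and LATS2 (9.10 and 8.90) overlapped there.

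Other known YAP1 and TAZ targets moved in both directions too. Of 18 further genes commonly read as their targets, 6 were higher, 7 lower and 5 did not pass, with a median log2 fold change of -0.04. Among all genes tested, 21.9% were higher and 22.3% lower. TGFB2, a TGF-beta ligand, rose from 34.5 and 30.5 CPM in WT to 143 and 196 CPM (log2 fold change 2.38, adjusted p = 0.00643). Its call was lost without WT replicate 2, where the log2 fold change was 2.30. NT5E, an ectoenzyme that produces adenosine, rose from 0.391 and 0.369 CPM to 2.02 and 2.75 CPM (log2 fold change 2.70, adjusted p = 3.58e-05). With 7 and 6.5 counts in WT, NT5E passed the filter on low counts only through the knockout-labelled libraries. DOCK5, NUAK2, RBMS3 and PTPN14 were higher as well. The last is a phosphatase that binds YAP1, and its call ended when WT replicate 1 (adjusted p = 0.118) or knockout replicate 1 (0.0585) was left out.

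Those that fell included IGFBP3, a carrier of insulin-like growth factors, at 301 and 351 CPM in WT and at 73.6 and 51.7 CPM in the knockout-labelled libraries (log2 fold change -2.38, adjusted p = 0.0154). Its call was lost without WT replicate 2 (adjusted p = 0.0767). FOXF2, a forkhead factor of mesenchyme, had 3 counts in both knockout-labelled libraries together against 62 in WT, a ratio of 24.1 (95% exact counting interval 7.86 to 120). FOXF2 passed the filter on low counts only through WT. MYOF, a membrane repair protein, fell from 250 and 263 CPM to 79.6 and 79.3 CPM (log2 fold change -1.69, adjusted p = 9.91e-12). ASAP1, AXL, GADD45A and CCDC80 were lower too, CCDC80 with an adjusted p of 0.121 when either WT replicate 1 or knockout replicate 2 was left out and of 0.0983 with DESeq2. ANKRD1, often read beside CTGF and CYR61, was low in all libraries, at 1.09 and 1.19 CPM in WT and 1.23 and 1.40 CPM in the knockout-labelled libraries, without passing (adjusted p = 0.682). Promoter windows were found for 13 of the 18, and 6 of their 14 windows (42.9%) held a TEAD core, against 11.9% of all windows.

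The upstream genes of the pathway also moved both ways. Of 12 kinases and scaffolds, 6 were higher, 2 lower and 4 did not pass (median log2 fold change 0.14), beside 21.9% higher and 22.3% lower of all genes. TAOK1, a kinase that can activate STK3 and STK4, rose from 179 and 184 CPM to 233 and 218 CPM (log2 fold change 0.31, adjusted p = 0.000257). SAV1, MOB1A, MOB1B, NF2 and WWC1 rose as well, all by less than a log2 fold change of 0.37, but the calls of MOB1A, MOB1B and NF2 ended without WT replicate 1 (adjusted p = 0.251, 0.109 and 0.122). Those of MOB1A and MOB1B also ended without knockout replicate 1 (0.208 and 0.0791), that of MOB1A without WT replicate 2 (0.0713) and that of NF2 without knockout replicate 2 (0.0889). DESeq2 ended the calls of MOB1A (0.212) and NF2 (0.103), and limma-voom that of MOB1A (0.0574). Those that fell were TAOK3 (log2 fold change -0.97) and FRMD6 (-0.37). The call of FRMD6 ended with DESeq2 (adjusted p = 0.0699), without WT replicate 1 (0.104) and without knockout replicate 2 (0.108). STK3, STK4, LATS1 and TAOK2 did not pass.

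Of 10 junction and cytoplasmic regulators, 6 were lower, 1 higher and 3 did not pass (median log2 fold change -0.27). The shares over all genes tested were 22.3% lower and 21.9% higher. AMOT, the founding angiomotin, fell from between 541 and 588 CPM in WT to 343 and 345 CPM (log2 fold change -0.71, adjusted p = 7.4e-08), and its relative AMOTL1 by 0.29 on the log2 scale. The tight junction scaffold TJP1 fell from 302 and 294 to 246 and 231 CPM. The gene that rose was FAT4, a giant cadherin linked to Hippo signalling, from 66.1 and 65.1 CPM to 211 and 191 CPM (log2 fold change 1.61, adjusted p = 6.1e-11). Its ligand gene DCHS1 was lower (log2 fold change -0.27), a call that ended when WT replicate 1 (adjusted p = 0.081) or knockout replicate 1 (0.0745) was left out.

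The vestigial-like cofactors, which bind the same face of TEAD factors as YAP1, included changes of more than 1 on the log2 scale. VGLL1, known from trophoblast, fell from 27.3 and 32.0 CPM to 12.04 and 9.67 CPM (log2 fold change -1.45, adjusted p = 4.15e-07). VGLL3 fell from 4.92 and 4.17 CPM to 1.89 and 1.97 CPM (log2 fold change -1.23). VGLL2 rose from 0.615 and 1.08 CPM to 6.63 and 12.5 CPM (log2 fold change 3.50, adjusted p = 0.000772). VGLL4 was at 185 and 180 CPM against 178 and 186 CPM and did not pass (adjusted p = 0.988).

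**Figure D5:**
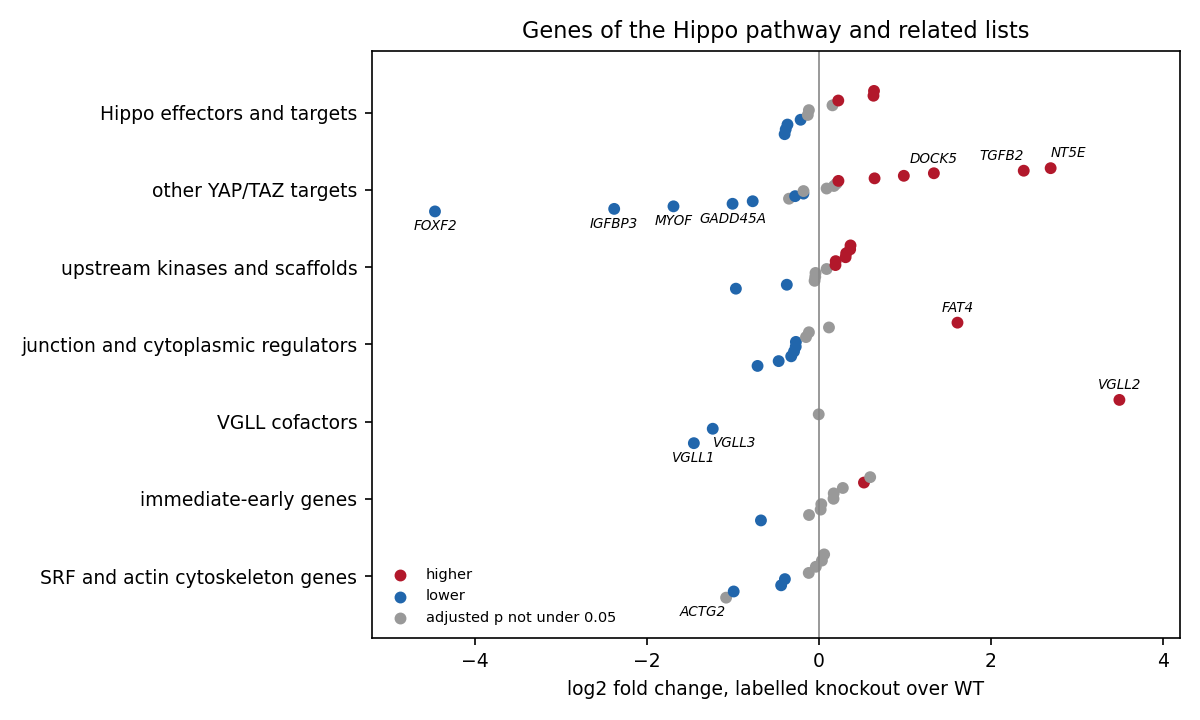
Log2 fold change, knockout-labelled libraries over WT, of each tested gene in 7 lists, coloured by call, with names at a size of 1 or more. The 10 Hippo effectors and targets lie between -0.40 and 0.64, while VGLL2 reaches 3.50 and TGFB2 2.38; the fitted value of FOXF2 rests on 3 counts.

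CTGF and CYR61 are also known to respond to serum and to tension on actin. Whether either response played a part here was not tested. Of 9 immediate-early genes tested, of 12, ATF3 was higher (5.65 and 5.13 to 7.78 and 7.68 CPM), EGR1 was lower (3.16 and 3.29 to 2.15 and 1.88 CPM) and 7 did not pass, against the 44.2% of all genes that did. FOS, at 1.54 and 1.28 CPM in WT and at 2.33 and 1.90 CPM in the knockout-labelled libraries, was among the 7 (log2 fold change 0.60, SE 0.28, adjusted p = 0.0978), as were IER2 and JUN. JUN was at 168 and 151 CPM in WT and at 163 and 225 CPM in the knockout-labelled libraries (log2 fold change 0.28, adjusted p = 0.415), and it passed without knockout replicate 1 (log2 fold change 0.49, adjusted p = 0.000146). The calls of ATF3 and EGR1 were lost with DESeq2 (adjusted p = 0.145 and 0.261) and without WT replicate 2 (0.0966 and 0.112), and that of EGR1 also without WT replicate 1 (0.0783) or knockout replicate 2 (0.129). Among 8 genes of SRF and the actin cytoskeleton, 3 were lower (ACTA2, CNN1 and TPM1) and the other 5, VCL among them, did not pass. The call of CNN1 ended with DESeq2 (adjusted p = 0.0861), without WT replicate 1 (0.122) and without knockout replicate 1 (0.141). Of the other CCN genes, NOV had 3 counts in WT against 33.5, a ratio of 9.59 (95% exact counting interval 3.01 to 48.8), and WISP1 rose from 1.45 and 1.02 to 3.79 and 3.55 CPM (adjusted p = 0.000179). NOV passed the filter on low counts only through the knockout-labelled libraries, and WISP2 and WISP3, with at most 1.5 counts in any library, were not tested.

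Markers of several cell types also differed between the genotypes. Of 6 amnion and trophoblast markers, 6 were lower, with a summed level of 2097 to 2269 CPM in WT and 186 to 249 CPM in the knockout-labelled libraries. For comparison, 22.3% of all genes tested were lower and 21.9% higher. Among these markers, CGA (26.5 and 48 counts in WT against 0 and 0) and CYP19A1 (45.5 and 51.5 against 3 and 3) passed the filter on low counts only through WT. GABRP made up the greater part of the WT sum (1126 and 1207 CPM, against 78.3 and 47.0 CPM), and its call ended without WT replicate 1 (adjusted p = 0.0879) and without WT replicate 2 (0.124). IGFBP3 is in that list and in the list of targets. Of 10 non-neural ectoderm markers 7 were lower (3217 to 3489 against 2288 to 2362 CPM), and of 8 mesenchyme markers 5 were lower (11431 to 11778 against 9261 to 10667 CPM). Calls in these lists also ended for GATA3 without knockout replicate 2 (adjusted p = 0.0563), and for COL3A1 without WT replicate 2 (0.0540), without knockout replicate 1 (0.0504) and with DESeq2 (0.0780). The summed level of 6 neural ectoderm markers was 17.0 to 17.9 CPM in WT and 43.1 to 65.9 CPM in the knockout-labelled libraries, most of it SOX2. SOX2, PAX6 and LHX2 were higher, and so was SOX1, which passed the filter only through the knockout-labelled libraries (1 count in each WT library against 25 and 15). ZIC1 (3 and 6.5 counts against 1.5 and 5) and OTX2 were too low to test. The call of SOX2 ended without WT replicate 1 (adjusted p = 0.114), without WT replicate 2 (0.248) and without the filter on low counts (0.0881), and that of LHX2 without WT replicate 2 (0.163), without knockout replicate 1 (0.0643) and with DESeq2 (0.173). Among 5 endothelium markers (40.9 to 42.8 against 16.8 to 17.8 CPM in sum) CDH5 and KDR fell, and PECAM1 had 0 counts in all 4 libraries. CDH5 (197 and 226.5 counts in WT against 6.5 and 13) passed the filter on low counts only through WT. TEK, at 15.2 and 11.6 CPM in WT and at 15.3 and 12.9 CPM in the knockout-labelled libraries, did not pass (adjusted p = 0.719) and made up most of the sum in the latter. TIE1, with 1 and 2.5 counts in WT and 9.5 and 7.5 in the knockout-labelled libraries, was not tested. The pluripotency markers DPPA4 and ZFP42 did not pass (adjusted p = 0.683 and 0.598). The part of these cell types in the results for TEAD2, VGLL1, CTGF and the other genes above was not tested.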

How the data were processed

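The authors deposited 1 table of estimated counts per gene for 4 libraries, in steps of 0.5 (37.0% of values not whole). The submitters' processing notes name TopHat, HOMER, DESeq2 and hg38, without versions. Neither counting settings, annotation nor use of strand is given in the sources used here. Gene positions were those of hg19: 4.34% of 22899 genes, and 0 of the 10 members, started at most 2000 bp from where GRCh38 places them. Another 42 rows lay on contigs with hg19 names.

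Counts were rounded, filtered with filterByExpr, scaled by TMM and tested with edgeR 4.0.16 (robust quasi-likelihood, genotype alone) in R 4.3.3, checked on simulated data. CPM use TMM-adjusted sizes. Intervals use the test's degrees of freedom, and SE is the log2 fold change over the root of F. Counting intervals and the counts behind them cover counting error only. Lengths are from GENCODE 29 and assume that reads were counted over exons. Replicates differed beyond sampling noise (chi-square per degree of freedom 4.40 and 4.33).

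The members and lists were chosen with earlier results of these data known. Beyond the members, the rule named for each list up to 4 called genes whose log2 fold change was 1 or more in size, or the 2 most abundant where fewer than 2 qualified. Marker lists are given mainly as sums. Other genes named, such as MYOF, FAT4, TAOK3, ATF3 and EGR1, were chosen after their values were seen. Columns were matched to libraries by genotype and replicate number.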

Additional observations from a re-analysis of the deposited data

How the results depend on the processing

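The directions of all 7 called genes of the 10 were kept under 13 alternatives (other scaling factors, filters, rounding, DESeq2 1.42.0, limma-voom 3.58.1, no robust estimation, the replicate block and each library left out). WWTR1, TEAD1, TEAD3 and CYR61 passed in all of them, and TEAD2, LATS2 and CTGF did not, as given above. The 10 genes had 2 to 3 higher and 3 to 5 lower calls, and a median log2 fold change of -0.16 to -0.08. Over all genes DESeq2 called 2262 higher against 3427 by edgeR, and 2435 lower against 3492. The cause was not tested. With 1 library left out, 5 to 7 upstream regulators and cofactors were higher, against 8, the lowest count being that without WT replicate 1. The summed TEAD level was -0.14 as a log2 ratio without length, since longer TEAD1 transcripts then weigh more, and -0.08 to -0.01 with 1 library left out. With all exons as the length, an alternative chosen after seeing the data, it was -0.07. Filters and tests do not enter that sum.

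The replicate number as a block gave 3050 higher and 3154 lower genes, with 3 of the 10 higher and 4 lower. The deviations of same-numbered libraries from their group means had a correlation across genes of -0.05. With 2 libraries per genotype, this value cannot tell whether same-numbered libraries shared a day or culture. Among the other genes listed the block ended the calls of MOB1A and EGR1. CTGF had as few as 117.5 counts in a WT library, which limits its precision, as does the spread between its knockout-labelled libraries (11.7 and 8.98 CPM).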
